A study of Rattus norvegicus with 6 samples.

Results

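Morf4l2 and 8 genes that encode other proteins of the NuA4 histone acetyltransferase complex were followed through the condylar cartilage of rats with and without a bite disturbance. The members were taken by symbol from the deposited gene table: Morf4l2, Morf4l1, Mrgbp, Kat5, Ep400, Trrap, Brd8, Epc1 and Meaf6, 9 of 44746 genes. Where a symbol had several rows, the protein-coding row with the highest mean level was used, which left 1 row a member out of 15 that carry a member symbol. The main row of Trrap holds its Ensembl transcripts but is typed as a processed transcript in the table, and it was kept. Morf4l2 itself was chosen because its difference between the groups in these libraries was already known, so its values are given as a description with no test.

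The study compared a control group (CON) with a unilateral anterior crossbite group (UAC), in which a dental procedure makes the jaws close unevenly and loads the temporomandibular joint abnormally. All rats were female Sprague-Dawley animals aged 6 weeks at the start, and all were killed 8 weeks later. Ribosomal RNA was removed from total RNA of the condylar cartilage, and 3 CON and 3 UAC libraries were sequenced. The number of animals behind each library is not given in the sources used here, so the p values below measure the spread between libraries, which may be partly technical. Gene counts summed to 71524713 to 86523541 a library. The 13 cartilage markers checked, Col2a1, Acan and Sox9 among them, were detected in all 6 libraries, with a summed level of 2038 to 3091 FPKM in CON and 1689 to 3164 FPKM in UAC. FPKM counts fragments per kilobase of transcript, scaled to the depth of the library, so levels of different genes can be compared. Skeletal muscle markers were uneven between libraries, from 32.5 FPKM in UAC replicate 3 to 302 FPKM in UAC replicate 1 when summed over the 10 genes measured. In each of these 2 lists 1 gene was lower in every UAC library, where 5.87% of all genes tested were. Col11a2 had means of 69.5 ± 7.03 FPKM in CON and 54.3 ± 5.45 FPKM in UAC (SD, n = 3 each). The muscle gene Tnnt1 had 1.91 ± 0.788 and 0.556 ± 0.112 FPKM.

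NuA4, also called the TIP60 complex in mammals, acetylates the tails of histones in the nucleosome and exchanges a histone variant, which opens chromatin for transcription and DNA repair. Kat5 is its acetyltransferase, Ep400 its ATPase and Trrap a very large scaffold that transcription factors bind. Morf4l1 and Morf4l2 are paralogues that share the MRG domain, through which they bind Mrgbp in NuA4 and also enter SIN3 deacetylase complexes. Morf4l1 carries in addition a chromodomain that reads histone methylation, which Morf4l2 lacks.

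The promoters of both paralogues are shown because the RNA level of Morf4l2 differed between the groups and that of Morf4l1 overlapped. All 9 members matched a promoter in RefSeq (GRCr8), and the 250 bases before the annotated start are printed 5′ to 3′ on the strand of the gene. Morf4l2 lies at chrX:104885947-104886196 and Morf4l1 at chr8:99544332-99544581, both on the minus strand. Capitals mark matches to the motifs searched.
Morf4l2: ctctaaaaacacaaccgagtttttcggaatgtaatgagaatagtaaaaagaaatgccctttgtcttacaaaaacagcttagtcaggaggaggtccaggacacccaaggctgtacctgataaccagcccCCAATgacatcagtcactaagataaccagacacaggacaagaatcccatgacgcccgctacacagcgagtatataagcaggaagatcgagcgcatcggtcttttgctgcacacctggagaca
Morf4l1: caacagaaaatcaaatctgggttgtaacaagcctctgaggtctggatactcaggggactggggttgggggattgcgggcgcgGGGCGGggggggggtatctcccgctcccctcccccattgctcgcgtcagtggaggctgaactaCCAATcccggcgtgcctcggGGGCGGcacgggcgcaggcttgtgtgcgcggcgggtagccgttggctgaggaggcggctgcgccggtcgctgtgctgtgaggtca
Motifs were searched on both strands in the 33469 RefSeq windows of the same length. The letters CCAAT occur in 34.0% of them, the GC box with the letters GGGCGG in 30.5% and the TATA box with the letters TATAAA in 12.9%. The E-box with the letters CACGTG occurs in 5.59%, and the cyclic AMP response element with the letters TGACGTCA in 1.59%. The Morf4l2 window holds 1 CCAAT, from base -122 to base -118 counted from the start, and no exact match to the letters of the other 4. Near matches were not searched, so the letters tatataag in this window, close to TATAAA, are not marked. The Morf4l1 window holds CCAAT from base -105 to base -101 and 2 GC boxes, which do not overlap it. Guanine and cytosine made up 46.4% of the Morf4l2 window and 66.8% of the Morf4l1 window, against a median of 51.2% over all windows. Among the other members, CCAAT also occurs on either strand in the windows of Kat5 and Epc1 and in both windows of Brd8. Ep400, Trrap and Epc1 hold 2, 3 and 3 GC boxes, and Kat5 holds 1 E-box. Mrgbp and Meaf6 hold no match.

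Morf4l2 stood at 18.2, 17.1 and 17.2 FPKM in CON replicates 1, 2 and 3 and at 68.6, 76.9 and 75.8 FPKM in UAC replicates 1, 2 and 3. Every UAC library was above every CON library, and the spread within a group was small beside the gap between the groups. The means were 17.5 ± 0.592 and 73.8 ± 4.50 FPKM (SD, n = 3 each), a ratio of 4.22. The counts behind these levels were 3598, 3209 and 3361 reads in CON and 11455, 15320 and 12528 reads in UAC. In edgeR the log2 fold change was 2.04 with a standard error of 0.09. These values chose the gene and are not a test of it.

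The gene lies on chromosome X from base 107394455 to base 107405564, on the minus strand, in the coordinates of the deposited table, whose genome build is not given in the sources used here. Its row holds the annotated transcript and 1 assembled transcript, and no other row carries the symbol. No lncRNA transcript is named Morf4l2, and no circRNA in the deposited table has it as host. Counts divided by FPKM and depth gave a transcript length of 2.30 to 2.32 kb in all 6 libraries, which reflects how the FPKM were computed and says nothing of the transcript in either group. Among 12028 protein-coding genes with a mean of at least 1 FPKM, 10 had a larger positive log2 fold change in edgeR. In CON, 91.5% of the 15001 protein-coding genes tested had a lower level than Morf4l2, and in UAC 98.1% had.

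**Figure D1:**
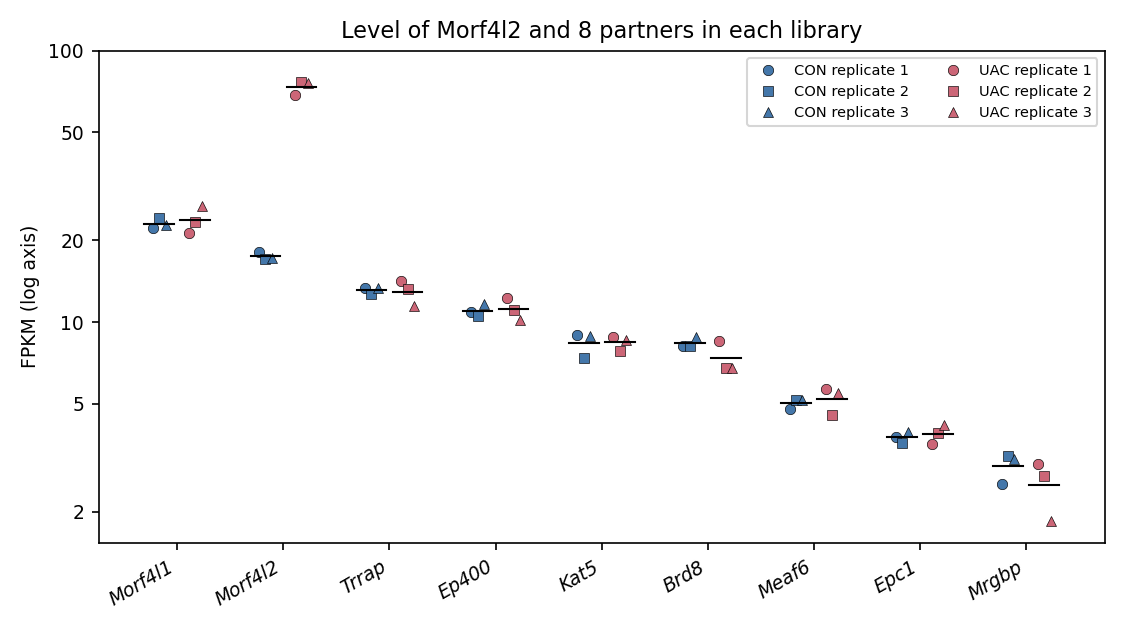
Level of the 9 members in FPKM on a log axis, with 1 point for each library, blue for CON and red for UAC, and a black line at each group mean (n = 3). The group means of Morf4l2 are 17.5 and 73.8 FPKM, and the CON and UAC points of the other 8 genes overlap.

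Markers of other cell types also differed between the groups, though not as whole lists. All 8 neutrophil markers tested had a positive log2 fold change, with a median of 0.49. Of these, 4 had an unadjusted p under 0.05 in edgeR, where 4.69% of all genes tested did with UAC higher. Their summed level was 1872 to 2163 FPKM in CON and 2160 to 3853 FPKM in UAC, and Camp, S100a8 and Ngp were higher in every UAC library. All 7 erythroid markers tested also had a positive log2 fold change, with 0 under an unadjusted p of 0.05 in edgeR. The erythroid sums overlapped, at 2405 to 4713 FPKM in CON and 3826 to 4642 FPKM in UAC. The sum of 9 macrophage markers was 884 to 1102 FPKM in CON and 1155 to 1700 FPKM in UAC, but this rests on Lyz2, the lysozyme gene, with means of 782 and 1231 FPKM. Without Lyz2, chosen after its values were seen, the other 8 summed to 193 to 221 FPKM in CON and 169 to 189 FPKM in UAC. Here the groups were apart in the opposite direction, in a sum where Cd68 had the highest level, with means of 105 and 88.1 FPKM. Cd68 and Csf1r, a lysosomal protein and a growth factor receptor of macrophages, were lower in every UAC library. The list as a whole was mixed, with 5 of the 9 log2 fold changes positive and 4 negative in edgeR. The sum of 10 B and plasma cell markers was 93.1 to 140 FPKM in CON and 142 to 217 FPKM in UAC, and without Jchain, the joining chain of antibodies, the groups overlapped at 51.8 to 69.5 and 44.6 to 84.3 FPKM. Within that list Jchain and Mzb1 were higher and Vpreb1 lower in every UAC library. The sum of 6 osteoclast markers was 2506 to 2918 FPKM in CON and 1886 to 2302 FPKM in UAC, with Acp5, Ctsk and Mmp9 lower and Calcr higher in every UAC library. The sums of 6 osteoblast markers (2023 to 2288 and 1676 to 2072 FPKM) and 10 proliferation markers (103 to 144 and 125 to 149 FPKM) overlapped. Still, all 6 osteoblast markers had a negative log2 fold change, and Ibsp, Sp7 and Alpl were lower in every UAC library. Ibsp had means of 530 FPKM in CON and 367 FPKM in UAC (edgeR adjusted p = 0.328). All UAC libraries lay above all CON libraries in 9.84% of all genes tested, and below them in 5.87%. None of the markers passed an adjusted p under 0.05 in edgeR, where 0.0196% of all genes tested did. Only Ltf of the neutrophil list was at the listed value for absence in any library. The part of these cells in the level of Morf4l2 was not tested, and in bulk RNA a change in cell number and a change in RNA per cell cannot be told apart.

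Morf4l1, the chromodomain paralogue, did not part between the groups. It was at 22.2, 24.2 and 22.8 FPKM in CON and at 21.4, 23.3 and 26.8 FPKM in UAC, and the groups overlapped. The log2 fold change was 0.01 (95% interval -0.26 to 0.28, edgeR adjusted p = 0.989), so a change of more than 1.21-fold upward lay outside the interval. Morf4l2 made up 45.0%, 41.5% and 43.0% of the summed FPKM of the pair in CON and 76.2%, 76.7% and 73.9% in UAC. The pair therefore changed order, from Morf4l1 above Morf4l2 in each CON library to Morf4l2 above Morf4l1 in each UAC library, and its sum was 40.5 ± 0.689 FPKM for CON and 97.7 ± 6.71 FPKM for UAC (SD, n = 3 each). As Morf4l2 was chosen on this contrast, these shares are a description.

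**Figure D2:**
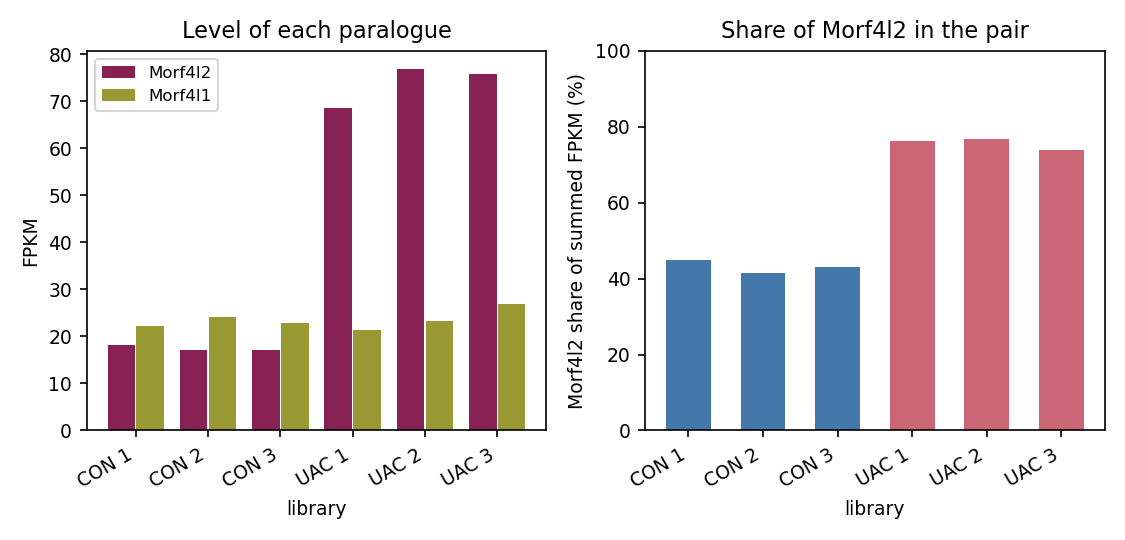
Left, FPKM of Morf4l2 and Morf4l1 in each library; right, the share of Morf4l2 in the sum of both, in percent, with CON in blue and UAC in red. The share lies between 41.5% and 45.0% in CON and between 73.9% and 76.7% in UAC.

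An annotated pseudogene on chromosome 13, AC109958, is described in the table as similar to the Morf4l1 protein and was counted at 2192 to 3746 reads a library. It stood at 36.8, 32.5 and 42.9 FPKM in CON and at 40.1, 31.9 and 29.7 FPKM in UAC, with a log2 fold change of -0.19 (edgeR adjusted p = 0.696). This copy stood above Morf4l1 in every library. Reads of Morf4l1 and of this copy may be divided between the rows, so the level of Morf4l1 is uncertain to that extent. The same holds for the share of Morf4l2 in the pair, the sum of the pair and the order of the paralogues.

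Mrgbp, the adaptor that holds the MRG proteins in NuA4, had the lowest level of the members. It was at 2.53, 3.21 and 3.12 FPKM in CON and at 2.99, 2.70 and 1.85 FPKM in UAC. UAC replicate 3 was the lowest library and the others overlapped. The log2 fold change was -0.28 (95% interval -0.80 to 0.24, edgeR adjusted p = 0.735). A second row, NEWGENE_1308612, carries the description of an MRG/MORF4L binding protein and lies on the same chromosome. Its level was 2.68 ± 0.317 FPKM as the CON mean and 2.16 ± 0.660 FPKM as the UAC mean (SD, n = 3 each, edgeR adjusted p = 0.712), again with 173 reads in UAC replicate 3 as its lowest count. Reads may be divided between these 2 rows as well.

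The enzymes of the complex did not pass the test. Kat5, the acetyltransferase, was at 8.95, 7.38 and 8.90 FPKM in CON and at 8.84, 7.85 and 8.60 FPKM in UAC, with a log2 fold change of -0.04 (95% interval -0.27 to 0.19, edgeR adjusted p = 0.935). Ep400, the ATPase that exchanges the histone variant H2A.Z, was at 10.9, 10.6 and 11.6 FPKM in CON and at 12.3, 11.04 and 10.2 FPKM in UAC, with a log2 fold change of -0.02 (95% interval -0.21 to 0.17, edgeR adjusted p = 0.958). The UAC libraries lay within the CON range for Kat5 and on both sides of it for Ep400.

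The scaffold and structural subunits also overlapped between the groups. Trrap, the scaffold bound by transcription factors such as Myc, was at 13.4, 12.7 and 13.4 FPKM in CON and at 14.2, 13.2 and 11.5 FPKM in UAC (log2 fold change -0.07, 95% interval -0.28 to 0.15, edgeR adjusted p = 0.867). Epc1, which joins Kat5 to the rest of the complex, was at 3.78, 3.596 and 3.95 FPKM in CON and at 3.54, 3.89 and 4.19 FPKM in UAC (log2 fold change -0.00, 95% interval -0.23 to 0.23, edgeR adjusted p = 0.994). Meaf6, a small subunit shared with other acetyltransferase complexes, was at 4.79, 5.15 and 5.15 FPKM in CON and at 5.66, 4.53 and 5.51 FPKM in UAC. Its log2 fold change was 0.01 (95% interval -0.29 to 0.31, edgeR adjusted p = 0.987).

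Brd8, a bromodomain subunit that binds acetylated histones, had the smallest p value of the partners. It was at 8.17, 8.20 and 8.82 FPKM in CON and at 8.53, 6.79 and 6.75 FPKM in UAC. UAC replicates 2 and 3 lay below all CON libraries, and UAC replicate 1 lay within the CON range. The log2 fold change was -0.24 (95% interval -0.46 to -0.02), and the adjusted p was 0.538 from edgeR, so Brd8 did not pass. It was the only partner with an unadjusted p under 0.05, 1 of 8, where 9.08% of all genes tested had one.

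Of the 8 partners, 0 passed an adjusted p under 0.05 in edgeR, in DESeq2 or in limma on log2 FPKM, where 0.0196%, 1.17% and 0.00978% of all 30668 genes tested did. An unadjusted p under 0.05 was found for 1, 0 and 0 of them, beside 9.08%, 9.57% and 8.59% of all genes. In 0 of 8 did all UAC libraries lie to one side of all CON libraries, where 15.7% of all genes tested did, 9.84% with UAC above and 5.87% with UAC below. Their median log2 fold change was -0.03 in edgeR and 0.01 in limma on log2 of FPKM plus 0.1, beside -0.00 and 0.03 over all genes tested. The 95% intervals of the 8 genes ran from 0.576-fold to 1.24-fold. As log2 of the ratio of FPKM to the CON mean of each gene, the median over the 8 was 0.05, -0.05 and -0.04 for UAC replicates 1, 2 and 3. Single partners ran from -0.11 to 0.17 in UAC replicate 1, from -0.31 to 0.04 in UAC replicate 2 and from -0.67 to 0.22 in UAC replicate 3, where Mrgbp was the lowest.

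In CON the order of the levels was Morf4l1, Morf4l2, Trrap, Ep400, Kat5, Brd8, Meaf6, Epc1 and Mrgbp, from 23.0 ± 1.02 to 2.96 ± 0.370 FPKM (SD, n = 3). The CON values of neighbours in this order did not overlap, except those of Kat5 and Brd8, at 8.41 ± 0.890 and 8.40 ± 0.369 FPKM. In UAC Morf4l2 moved to the first place and Morf4l1 to the second, and the order of the other 7 by group mean was the same, though the UAC values of Trrap and Ep400 overlapped, as did those of Kat5 and Brd8. The place of Epc1 depends on the length the authors used, since counts and FPKM together give 78.9 kb for it, out of a genomic span of 92.9 kb, and 1.29 to 16.3 kb for the other 8 members. That row holds 145435 reads over the 6 libraries and also carries the microRNA symbol Mir1893, and its exons were not analysed here.

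Further rows carry the symbols of 5 partners and hold assembled transcripts with no Ensembl transcript, 6 rows in all. Inside Trrap, the unstranded row MSTRG.7502 was at 0.994, 1.09 and 1.16 FPKM in CON and at 1.78, 1.93 and 1.501 FPKM in UAC, with all UAC libraries above all CON libraries. Its adjusted p was 0.522 from edgeR, so it did not pass, and it holds 0.589% of the reads of the symbol. On the strand opposite Epc1, MSTRG.12727 had 3978 reads in UAC replicate 1 and 0 reads in the other 5 libraries, so it belongs to 1 library and says nothing of the group. The 2 rows at Brd8 had 3.67 ± 0.348 and 2.48 ± 0.0741 FPKM in CON and 4.15 ± 0.635 and 2.55 ± 0.191 FPKM in UAC (SD, n = 3 each, edgeR adjusted p = 0.898 and 0.9998). The row beside Meaf6 was at 1.87 ± 0.136 FPKM in CON and at 2.45, 0.707 and 0.361 FPKM in UAC, again highest in UAC replicate 1. Of these 6 rows, 5 are listed among the lncRNA transcripts, all of the intronic class. Whether the counting used strand is not given in the sources used here, so reads of a gene and of a row opposite it cannot be told apart.

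circRNAs came from Ep400 and Trrap alone among the members. Ep400 hosted 8 with 20 junction reads in all, of which 8 were in CON replicate 2 and 10 in UAC replicate 3, and Trrap hosted 2 with 5 reads, all in UAC replicate 2. Over all hosts there were 32352 junction reads, and the counts of these hosts are too few for a comparison.

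The remaining NuA4 subunits were looked at as a list of 10 genes. None passed an adjusted p under 0.05 in edgeR, DESeq2 or limma, and 1, 1 and 0 of the 10 had an unadjusted p under 0.05, beside 9.08%, 9.57% and 8.59% of all genes tested. In edgeR that gene was Vps72, the H2A.Z chaperone, at 10.9 ± 1.59 FPKM as the CON mean and 9.11 ± 0.671 FPKM as the UAC mean (SD, n = 3 each, edgeR adjusted p = 0.543). Mbtd1, which binds methylated histones, had means of 5.04 ± 0.456 FPKM for CON and 5.91 ± 0.488 FPKM for UAC, and Epc2, the paralogue of Epc1, of 6.90 ± 0.395 and 7.62 ± 0.612 FPKM. Ing3, which reads methylated histone H3, had 5.61 ± 0.450 and 5.27 ± 0.511 FPKM. The adjusted p of Mbtd1, Ing3 and Epc2 were 0.631, 0.731 and 0.751 from edgeR. The log2 fold changes of the list ran from -0.30 to 0.19 with a median of -0.07.

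SIN3 deacetylase complexes take up the same MRG proteins, and 20 of the 21 genes listed for them were measured. None passed in edgeR, DESeq2 or limma, and 3, 2 and 1 had an unadjusted p under 0.05, beside 9.08%, 9.57% and 8.59% of all genes tested. In edgeR 1 was higher and 2 were lower in UAC, beside 4.69% and 4.39% of all genes. All UAC libraries lay above all CON libraries for 3 of the 20 and below them for 1, beside 9.84% and 5.87% of all genes tested. Sap130, a subunit of the complex, was at 5.17 ± 0.255 FPKM as the CON mean and 4.49 ± 0.490 FPKM as the UAC mean. The deacetylase Hdac2 was at 12.2, 12.6 and 13.1 FPKM in CON and 11.7, 10.8 and 11.9 FPKM in UAC, all below. The histone-binding Rbbp4 was at 23.1, 24.0 and 26.7 FPKM in CON and 30.7, 28.6 and 27.7 FPKM in UAC, all above. The adjusted p of Sap130, Hdac2 and Rbbp4 were 0.500, 0.525 and 0.536 from edgeR. Ogt, which attaches a sugar to nuclear proteins, had 24.3 ± 0.769 and 21.9 ± 3.35 FPKM (edgeR adjusted p = 0.602). The median log2 fold change of the list was -0.01.

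**Figure D3:**
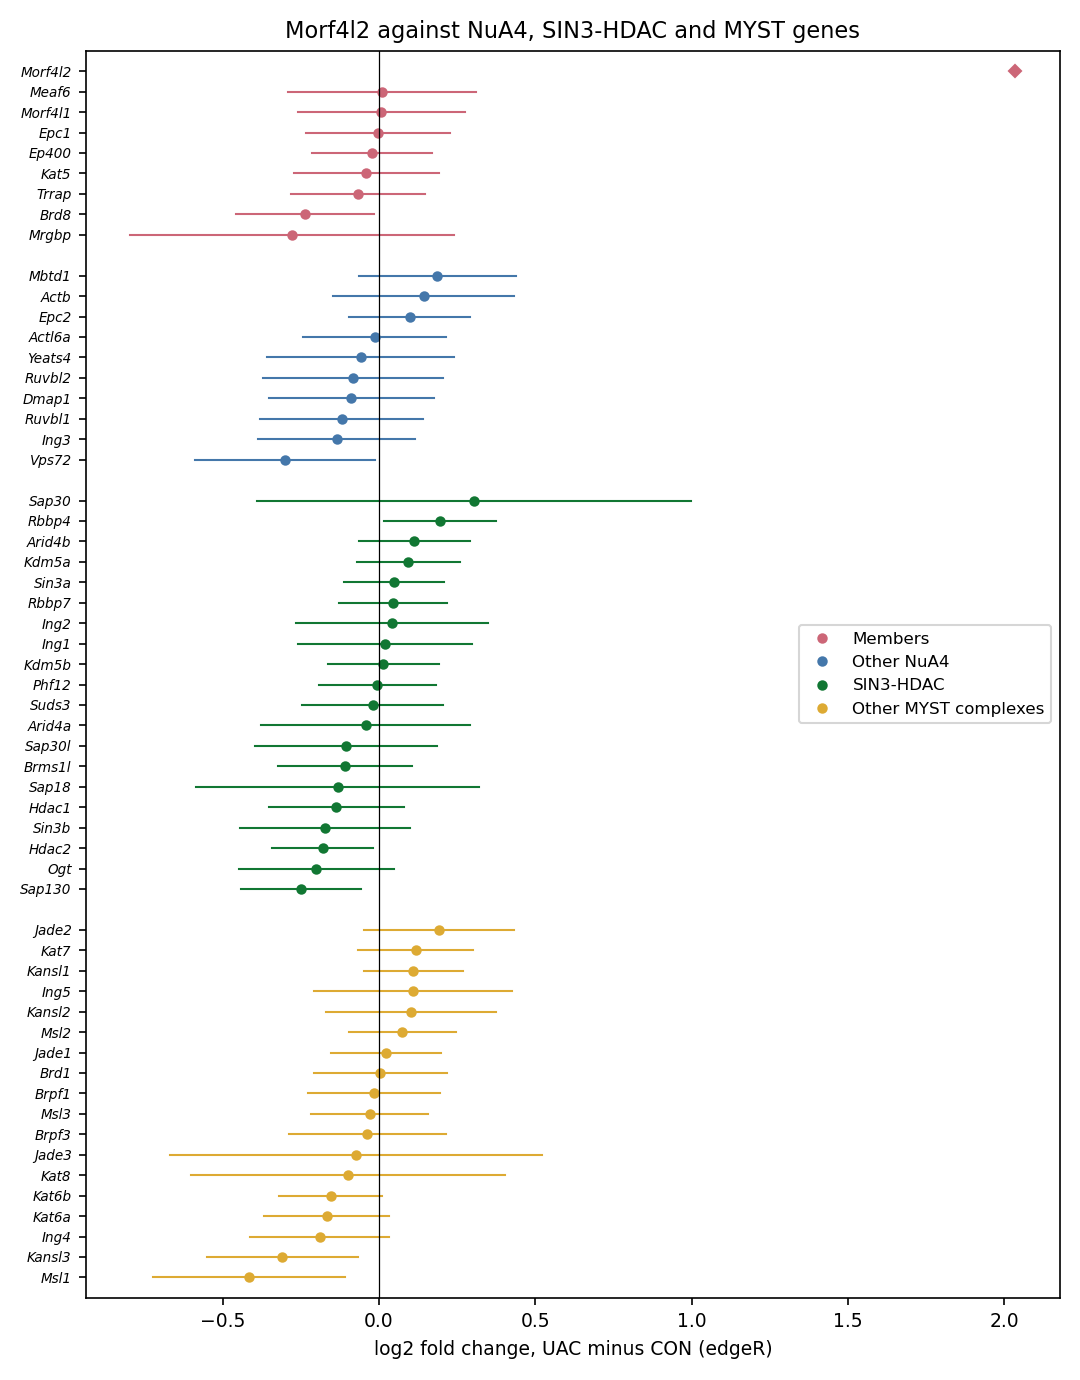
Log2 fold change, UAC minus CON, of the members, the other NuA4 subunits, the SIN3-HDAC subunits and the other MYST complexes, with 95% intervals from edgeR; Morf4l2, a diamond, has no interval because it was chosen on this contrast. Morf4l2 lies at 2.04, and every other gene lies between -0.42 and 0.30.

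Kat5 belongs to the MYST family of acetyltransferases, and 18 genes of the other MYST complexes were measured, Kat6a, Kat6b, Kat7 and Kat8 among them. None passed in edgeR, DESeq2 or limma, and 2, 2 and 3 of the 18 had an unadjusted p under 0.05, beside 9.08%, 9.57% and 8.59% of all genes tested. In edgeR these were Msl1 and Kansl3, subunits of Kat8 complexes, at 12.5 ± 1.93 and 9.19 ± 0.737 FPKM in CON and at 9.63 ± 0.828 and 7.65 ± 0.830 FPKM in UAC (SD, n = 3 each, edgeR adjusted p = 0.499 and 0.500). The acetyltransferase Kat6b had 4.59 ± 0.194 and 4.25 ± 0.118 FPKM and Ing4, a reader of methylated H3, 14.9 ± 0.899 and 13.5 ± 0.813 FPKM. Over the list, log2 fold changes had a median of -0.02. The 6 measured genes of H2A.Z exchange had 0 below an unadjusted p of 0.05 in edgeR. H2az1, which encodes the variant itself, was at 34.5 ± 3.45 FPKM as the CON mean and 41.8 ± 5.66 FPKM as the UAC mean, with the groups apart by less than 1 FPKM and an adjusted p of 0.620 from edgeR. Of 5 genes whose proteins are known to bind MRG proteins or share their pathway, Palb2, Brca2, Ash1l, Setd2 and Rb1, 0 had an unadjusted p under 0.05 in edgeR.

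The neighbours of Morf4l2 on the X chromosome were read out beside it. They are the 5 tested genes with a symbol on each side, at gaps of 16.8 to 617 kb. None passed an adjusted p under 0.05 in edgeR, DESeq2 or limma, and 2, 2 and 2 of the 10 had an unadjusted p under 0.05, beside 9.08%, 9.57% and 8.59% of all genes tested. Tceal1, 22.1 kb away on the opposite strand and a nuclear protein related to an elongation factor, was at 1.12, 1.15 and 1.42 FPKM in CON and at 1.99, 1.69 and 1.66 FPKM in UAC. All its UAC libraries were above all its CON libraries, with a log2 fold change of 0.49 (95% interval 0.03 to 0.95, edgeR adjusted p = 0.539). Tceal9, 600 kb away, was lower in every UAC library, with 23.2, 24.2 and 25.96 FPKM in CON and 20.5, 22.5 and 20.7 FPKM in UAC (edgeR adjusted p = 0.525). Glra4, a glycine receptor subunit 16.8 kb away on the other side, was at 0.435 ± 0.0705 FPKM as the CON mean and 0.428 ± 0.144 FPKM as the UAC mean (SD, n = 3 each).

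**Figure D4:**
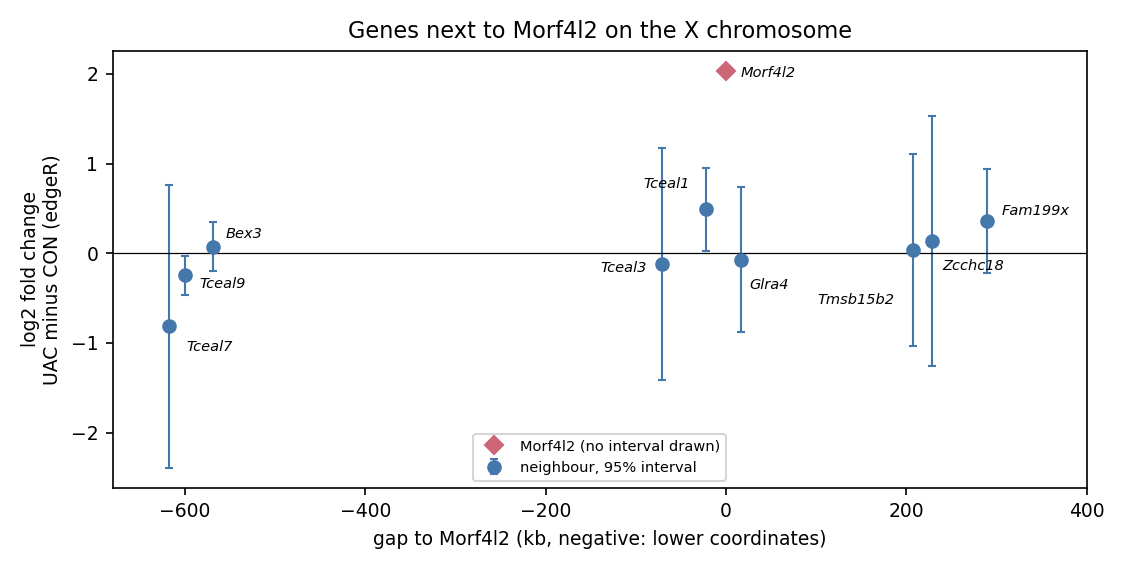
Log2 fold change, UAC minus CON, of Morf4l2 and 9 of the 10 neighbouring genes against the gap to Morf4l2 in kb, with 95% intervals from edgeR. Tceal1, at 0.49, is the nearest gene on one side, and Morf4l2, at 2.04, has no interval because it was chosen on this contrast.

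The genes with the pattern most like that of Morf4l2 were Mal (r = 0.993), AABR07028795 (0.989), Egln3 (0.989), AABR07065883 (0.984) and Setd2 (0.983), by Pearson's r of log2 CPM (counts scaled to library size) over the 6 libraries. They were ranked among 12027 protein-coding genes with a mean of at least 1 FPKM, of which 155 had an r above 0.9. The 6 libraries fall into 2 groups for Morf4l2, so the measure picks genes whose groups are apart and tight, whatever the size of the gap. Mal, a membrane protein of myelin and lymphocytes, was at 0.888, 0.918 and 0.824 FPKM in CON and at 1.71, 1.76 and 1.81 FPKM in UAC. Egln3, a prolyl hydroxylase of the hypoxia-inducible factor, had 1.59 ± 0.0518 FPKM for CON and 2.24 ± 0.0483 FPKM for UAC (SD, n = 3 each). Setd2, the methyltransferase that writes the histone mark read by the Morf4l1 chromodomain, was at 11.2, 11.1 and 11.6 FPKM in CON and at 12.7, 11.9 and 12.3 FPKM in UAC, a ratio of 1.09 where Morf4l2 had 4.22.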

How the data were processed

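Per the labels and the methods of the study, the authors used cutadapt (1.9) for trimming, FastQC for read quality, Hisat2 and Bowtie2 for mapping, and StringTie for assembly, and merged the assemblies. The authors deposited whole-number read counts per assembled gene and per circRNA junction. The authors also deposited FPKM per gene and per lncRNA transcript, where 0.0001 is listed for absence. Counts and FPKM imply 1 length a gene, within 0.682% over libraries for the members, so they are not independent measures. Of the per-sample columns, 12 of other measures were not used.

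The members and all gene lists were chosen with earlier results of these data known. Genes with a mean of at least 0.1 FPKM were tested with edgeR 4.0.16 (quasi-likelihood, TMM, no covariate) in R 4.3.3, with Benjamini-Hochberg adjustment over all 30668 and a threshold of 0.05. Intervals are 95% intervals of the fit. DESeq2 1.42.0, limma 3.58.1 on log2 of FPKM plus 0.1 or 1, a minimum of 1 FPKM or none, other scaling, a robust fit, a replicate block, leaving out each library and summing rows of a symbol were the alternatives. The edgeR step was tested on simulated data. The genes named are the members, up to 4 of each list with the smallest p, the 5 neighbours on each side, of which 1 is counted but not reported here by name, and the 5 genes most like Morf4l2. In the text of the H2A.Z and MRG lists, genes are also named to say what a list holds.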

Additional observations from a re-analysis of the deposited data

How the results depend on the processing

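No partner, neighbour or gene of the other NuA4, SIN3-HDAC and other MYST lists passed an adjusted p under 0.05 in any alternative, and the log2 fold change of Morf4l2 ran from 1.99 to 2.11. The count over all genes did depend on the setting, from 6 in edgeR to 358 in DESeq2, 3 in limma on log2 of FPKM plus 0.1, 2 in limma with a pseudocount of 1 and 2 with a minimum of 1 FPKM. Leaving out 1 library at a time gave 5 (without UAC replicate 1) to 14 (without UAC replicate 2). With the replicate number as a block it was 0, with 2207 genes at an unadjusted p under 0.05, and Morf4l2 was at 2.03. Same-numbered libraries did not deviate together (correlations of -0.0196, -0.0120 and -0.0310), which cannot exclude a shared round of harvest or processing. The methods state that taking 3 samples from each group was repeated 3 times, without saying how the rounds map to the libraries. The unadjusted p of Brd8 was not under 0.05 in 10 of 15 alternatives, among them DESeq2, limma, the minimum of 1 FPKM, the replicate block and 5 of the 6 fits that leave out 1 library (all but the one without UAC replicate 1), and its log2 fold change ran from -0.33 to -0.18. With 3 libraries a group, changes of the partners within their 95% intervals are not excluded.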
